A study of Homo sapiens with 30 samples.

Results

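Cytosolic ribosomal proteins were examined here as 83 gene symbols of the 54300 in the count files. Of them 49 belong to the large and 34 to the small ribosomal subunit. They were taken by symbol: RPL or RPS, digits and at most one of the letters A, X or L, plus RPLP0, RPLP1, RPLP2 and RPSA. The rule uses symbols alone, although the set was proposed with results of these data known. After a filter on low counts 80 of the 83 could be tested. RPL10L and RPS10L were among the 3 that could not. RNA sequencing was done on Jurkat E6-1, an established human T cell leukaemia line. KO cells, which the labels also call SLAMF6∆17-65, lack isoform 1 of SLAMF6, an immune cell receptor that binds its own kind. The title of the series speaks of overexpressed isoform 3 instead, and the design text and sample labels, which name an isoform 1 knockout, were followed here. WT cells are the unedited line. Both were sampled unstimulated at 0 h and after 6, 12, 24 and 36 h of PMA, an activator of protein kinase C, with ionomycin, which lets calcium in. This pair of drugs imitates signals of the T cell receptor. The labels give the times without a unit, and hours were taken from the protocol. That protocol, written for an assay of secreted cytokine, gives doses of 200 ng/ml for PMA and of 300 ng/ml for ionomycin. With 3 libraries in each of 10 groups there were 30. Nothing in the labels says whether they come from separate cultures or the KO from more than 1 clone, so the p-values cover the spread between libraries, which may be technical.

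A ribosome carries one copy of nearly every one of these proteins around its ribosomal RNA, and cells hold their transcripts at high and matched levels. Most of the mRNAs begin with a run of pyrimidines, the terminal oligopyrimidine (TOP) tract. Through it the kinase complex mTORC1 and the RNA-binding protein LARP1 set how much of each mRNA is translated and how stable it is. T cells build many ribosomes when they are activated to grow, and ribosomal protein mRNA is among the most abundant in resting and activated lymphocytes.

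A library held between 5.64 and 28.2 M counts. All 10 markers of the T cell line averaged over 1 CPM (counts scaled to a common library size) in both genotypes, with sums of 3717 to 5858 CPM in KO and 4468 to 6132 CPM in WT libraries. Of the 4 monocyte markers, CD14 and LYZ stayed under 1 CPM in every group mean, and sums were 4.40 to 43.2 CPM in KO and 6.93 to 15.8 CPM in WT, mostly CD68. The 4 B cell markers summed to 9.78 to 31.4 CPM in KO and 15.5 to 32.9 CPM in WT, mostly CD79A. Epithelial markers reached at most 3.82 CPM in KO and 2.55 CPM in WT, and erythroid markers 0.243 CPM in KO and 0.817 CPM in WT. Counts per gene for SLAMF6 sum over isoforms and do not check the loss of isoform 1: they averaged 139 ± 12.8 CPM in KO and 105 ± 5.90 CPM in WT at 36 h (SD, n = 3 each). The letter before the replicate number in the titles is B for KO and A for WT at 0 to 24 h and C for both at 36 h. What the letter marks is not stated. At 0 to 24 h whatever it marks cannot be told apart from genotype. In changes from 0 h to 36 h, and their difference between genotypes, it cannot be told apart from activation time. KO and WT share the letter at 36 h.

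The starts of these genes are shown first, as a description of a feature that the choice by symbol did not use. RefSeq start sites on GRCh38.p14 were available for 64 members. In the 20 bases before each start and the 20 bases from it, the coding strand was searched for pyrimidine strings of the kind a TOP tract holds. The first was CTTTC, found in 34 of the 64 members and in 6.96% of all genes. Another was CTTTT, found in 18 members and in 6.07% of all genes. The last was CTCTT, which can overlap either of the others and was found in 28 members and in 6.78% of all genes. At least one of the 3 strings was found in 52 of 64 members (81.3%) and in 4535 of all 27305 genes with a start in the table (16.6%). A gene with several starts counted if any start matched. On the other strand the shares were 4 of 64 members (6.25%) and 13.2% of all genes. Among nuclear genes for mitochondrial ribosomal proteins, which serve a separate ribosome, 7 of 65 (10.8%) matched on the coding strand. Base composition was not matched between these sets. Below are the windows of genes with large or small differences in the results, and of a paralog pair, 5′ to 3′ with the matched strings in capitals. The first transcribed base is the 21st.
RPS6: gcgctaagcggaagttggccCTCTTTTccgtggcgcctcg
RPS18: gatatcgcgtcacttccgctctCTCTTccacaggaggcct
RPL35: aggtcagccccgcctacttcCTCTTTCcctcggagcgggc
RPS12: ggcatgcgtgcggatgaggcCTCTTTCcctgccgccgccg
RPLP0: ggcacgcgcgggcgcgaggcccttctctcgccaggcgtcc
RPS27: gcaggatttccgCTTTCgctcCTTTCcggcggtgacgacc
RPS27L: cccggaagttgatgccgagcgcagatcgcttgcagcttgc
The windows lie at chr9:19380217-19380256 (minus strand) for RPS6, chr6:33272055-33272094 (plus) for RPS18 and chr9:124861938-124861977 (minus) for RPL35. Those of RPS12, RPLP0 and RPS27 lie at chr6:132814549-132814588 (plus), chr12:120201092-120201131 (minus) and chr1:153990742-153990781 (plus). That of RPS27L lies at chr15:63157458-63157497 (minus). RPLP0 and RPS27L held no match, which says only that these letters are not in the window. From its 21st base on, the RPLP0 window itself begins with pyrimidines, so genes without a match may still hold a TOP tract. The other members without a match were RPL3, RPL6, RPL10L, RPL14, RPL36, RPS4X, RPS7, RPS26, RPS28 and RPS29.

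**Figure D1:**
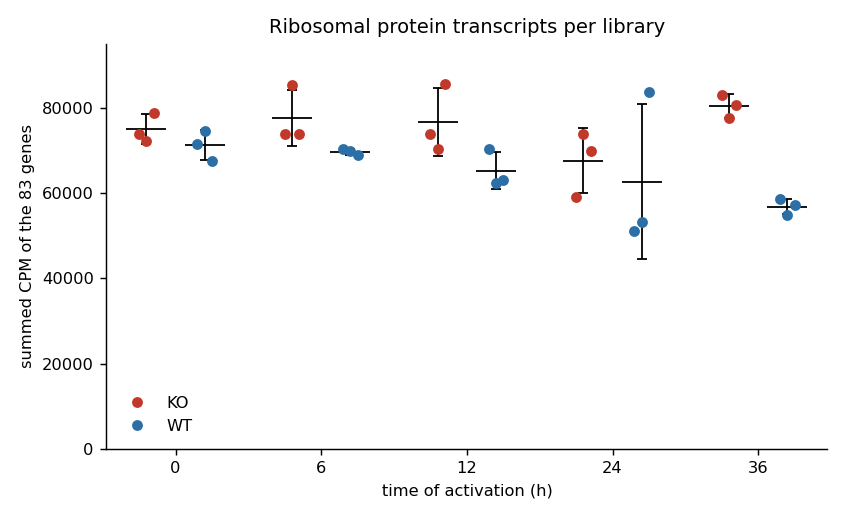
Summed TMM-scaled CPM of the 83 genes (y axis, linear from 0) in each of 30 libraries at each time of activation in hours (x axis), KO in red and WT in blue, with the mean and SD of 3 libraries in black. At 36 h the KO libraries lie between 77617 and 83081 CPM and the WT libraries between 54864 and 58505 CPM; 1 WT library at 24 h stands at 83619 CPM.

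Together the 83 genes took 5.36 to 8.34% of all counts in a library. Levels from here on are CPM scaled by TMM, a method that makes most genes equal between libraries. In KO cells the summed level averaged 74974 ± 3483, 77675 ± 6606, 76690 ± 7976, 67588 ± 7672 and 80479 ± 2741 CPM at 0, 6, 12, 24 and 36 h (SD, n = 3 each). In WT cells it averaged 71278 ± 3528, 69725 ± 723, 65269 ± 4368, 62646 ± 18193 and 56843 ± 1841 CPM at the same times (SD, n = 3 each). The WT mean was lower at each later time, an order that turns round between 24 and 36 h without replicate 3 at 24 h (52159 CPM, below the 56843 CPM at 36 h). The KO mean at 36 h was the highest of its 5. At 36 h the KO libraries held 83081, 77617 and 80739 CPM, against 58505, 54864 and 57160 CPM in WT libraries. These 2 groups were far apart, and their ratio was 1.42. The ratios of KO to WT means at 0, 6, 12 and 24 h were 1.05, 1.11, 1.17 and 1.08. No test was run on a sum, because the genes were chosen with results of these data known.

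Above the rest of their groups in this sum stood 3 libraries, and 1 stood below. At 24 h the WT libraries held 51113, 53206 and 83619 CPM. All 80 tested members were highest in WT replicate 3, and without it the WT mean was 52159 CPM and the KO to WT ratio 1.30. That library also had the most mitochondrial ribosomal protein RNA of its group, at 8270 CPM, against 6170 and 6383 CPM in the other libraries, and its 16.7 M counts were not unusual. Among KO libraries at 6 h, replicate 2 held 85303 CPM and the others 73938 and 73784 CPM. KO replicate 3 at 12 h held 85666 CPM and the others 73987 and 70416 CPM. On the low side, KO replicate 1 at 24 h held 59059 CPM and the others 73925 and 69782 CPM. What sets these libraries apart was not tested. The 3 high libraries were left out together as an alternative chosen after the data were seen, and the low library only by itself. The 3 were picked by the sum of the members, so member counts without them are a description and no separate support.

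Large and small subunits kept nearly the same proportion, with a small shift to the large subunit at 36 h. Large-subunit genes summed to 1.25 to 1.40 times the small-subunit genes in KO libraries and 1.27 to 1.40 times in WT libraries. The ratio was 1.37 ± 0.0252 in KO and 1.40 ± 0.00839 in WT cells at 36 h (SD, n = 3 each). At 0 h it was 1.32 ± 0.00896 in KO and 1.30 ± 0.0306 in WT cells. At 24 h it ran from 1.35 to 1.38 in KO and from 1.35 to 1.36 in WT libraries. In both genotypes the 24 h and the 36 h libraries lay above the 0 h libraries with no overlap. Across the 30 libraries each member's log2 level was correlated with the mean of the other tested members. The median of these correlations was 0.86, and 53 members were above 0.8. RPL26 had the highest value, 0.97, and RPL3L the lowest, -0.21, while RPL39L had 0.42. With the group means taken out the median was 0.89, so that members also varied together between libraries of a group. The points share libraries and their scaling, and these values are a description.

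Per kb of mRNA (GENCODE 29, the median length of principal coding transcripts) the 78 tested members of at least 10 CPM spanned 7.94 to 2802 CPM per kb, with a median of 994. The highest were RPS18 (2802), RPS14 (2768), RPL19 (2633), RPS27 (2567) and RPS19 (2255 CPM per kb), 4 of them in the small subunit. Among the lowest tested were RPL3L (0.210), RPS27L (7.94), RPL39L (60.4) and RPL37 (65.1 CPM per kb). RPL37 has an annotated transcript of 7686 bases, so its place in this order rests on that length. RPS27L, the lower end of the span, has 6434 bases at a mean of 51.1 CPM, so its value also rests in part on length. Processed pseudogenes are a source of shared reads: 73 members have 787 pseudogene symbols in the files. Their summed level was small, with a median of 0.30% of parent and pseudogenes together, and exceeded 5% for 3 members of at least 10 CPM: RPS2 (11.3%), RPL23A (9.31%) and RPL21 (5.76%).

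The comparison of genotypes asks whether cells without SLAMF6 isoform 1 differ from WT in these transcripts at each time. At 36 h the ribosomal protein mRNAs were higher in KO as a group, with median log2 differences of 0.48 in the large and 0.49 in the small subunit, and at earlier times few of them passed the test. Of 80 members 50 (62.5%) were called higher in KO at 36 h by edgeR's quasi-likelihood test with Benjamini-Hochberg adjustment over all 21554 genes (adjusted p under 0.05), where 6.95% of all genes were called higher. Without WT replicate 2 at 36 h the count was 31 of 81, against 893 of all 23182 genes. The 50 were 31 of 48 large-subunit and 19 of 32 small-subunit genes. None was called lower, against 6.52% of all genes, with 1 member lower at an unadjusted p under 0.05 and 0 by DESeq2. The members' median log2 difference was 0.49 and that of all genes -0.002. Every KO library was above every WT library for 75 of 80 members, against 16.4% of all genes. In bulk libraries fewer cells that express a gene and less of its RNA per cell cannot be told apart, nor can a rise of these genes from a fall of others, since CPM are shares.

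**Figure D2:**
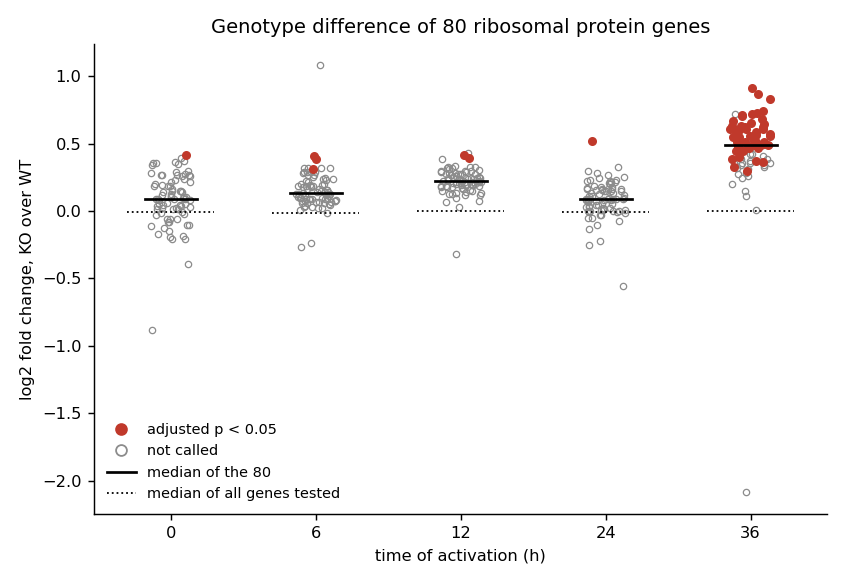
Log2 fold change of KO over WT (y axis) for 80 tested ribosomal protein genes at each time in hours (x axis). Red points passed the adjusted p threshold, open points did not; solid bars are medians of the 80 genes and dotted lines medians of all 21554 genes. The 36 h median is 0.49 with 50 genes called; RPL3L, at a few counts, is the point at -2.09.

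At 0 h 1 member was called higher in KO (2.96% of all genes) and 0 lower (3.11%). At 6 h 3 members were called higher (5.21% of all genes) and 0 lower (4.76%). At 12 h 2 were called higher (6.07%) and 0 lower (5.52%), and at 24 h 1 higher (4.97%) and 0 lower (4.76%). These counts are at or under the share of all genes. At an unadjusted p under 0.05, edgeR put 12, 13, 21 and 4 members higher and 1, 0, 0 and 0 lower at 0, 6, 12 and 24 h, and DESeq2 called 1, 0, 0 and 0 lower after adjustment. The members' median log2 differences were 0.09, 0.14, 0.22 and 0.09 at these times. Libraries did not overlap, with KO above, for 14 of 80 members at 0 h (12.4% of all genes), 39 at 6 h (14.5%), 27 at 12 h (15.0%) and 1 at 24 h (11.8%). With the 3 high libraries left out, and so fewer libraries to overlap, these were 16, 39, 30 and 69 of 81, against 10.7, 19.8, 19.5 and 18.5% of all genes. Without WT replicate 3 at 24 h, 52 of 81 tested members were called higher in KO at 24 h, against 4.56% of all genes, with a median log2 difference of 0.43. That library was singled out for its high sum of members, so a rise of this count follows from the choice. With KO replicate 1 at 24 h left out instead, 2 were called higher. Over the average of the 5 times 56 members were called higher (15.3% of all genes) and 0 lower (15.3%), with 1 lower at an unadjusted p under 0.05 and 0 by DESeq2. Of those, 33 were in the large and 23 in the small subunit. The average includes 36 h, and its median log2 difference of the members was 0.21, beside 0.49 at 36 h alone. With the 3 high libraries left out 72 of 81 were called higher in the average (14.5% of all genes) and 1 lower (15.2%).

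The largest differences at 36 h were in RPL35, RPS19 and RPS18. RPL35, a large-subunit protein beside the exit of the nascent chain, had 675, 623 and 633 CPM in KO, against 339, 356 and 333 CPM in WT. Its log2 difference was 0.91 (SE 0.16, adjusted p = 0.00015). RPS19, which is needed to mature the small subunit's RNA and is mutated in Diamond-Blackfan anaemia, had 2146, 1929 and 2106 CPM in KO, against 1178, 1113 and 1089 CPM in WT. The log2 difference was 0.87 (SE 0.16, adjusted p = 0.000273). RPS18, at the head of the small subunit, had 2211, 1941 and 2266 CPM in KO, against 1309, 1153 and 1145 CPM in WT, a log2 difference of 0.83 (SE 0.13, adjusted p = 1.54e-05). In all 3 genes the lowest KO library was well above the highest WT library, and none differed by that test at 0 h, where the log2 values were 0.03, 0.11 and 0.05 (adjusted p = 0.956, 0.786 and 0.873).

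RPS2, a small-subunit protein at the mRNA entry, was the member called at most times. At 24 h it had 690, 791 and 768 CPM in KO, against 496, 523 and 550 CPM in WT, a log2 difference of 0.52 (SE 0.11, adjusted p = 0.000951). It was the one member of 80 that did not overlap between genotypes at that time with WT replicate 3 in place. At 0, 6, 12 and 36 h RPS2 differed by 0.18, 0.38, 0.41 and 0.65 on the log2 scale, with adjusted p of 0.338, 0.0148, 0.00808 and 4.1e-05. The average over the 5 times, 0.43 (SE 0.05, adjusted p = 8.85e-09), was the largest of the members called. Its 19 pseudogene symbols hold 11.3% of parent and pseudogene CPM, more than for any other member of at least 10 CPM, and with their counts added the calls at 6, 12 and 24 h and in the average were the same. The call at 6 h was lost without KO replicate 2, the library that stood apart (adjusted p = 0.20), and without WT replicate 3 at that time (adjusted p = 0.119).

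Among the 3 proteins of the stalk, which recruits translation factors to the large subunit, RPLP0 was called and RPLP1 and RPLP2 were not. RPLP0, the base of the stalk, had 2805, 2517 and 2665 CPM in KO, against 1705, 1493 and 1632 CPM in WT at 36 h. Its log2 difference was 0.73 (SE 0.12, adjusted p = 4.22e-05). RPLP1 had 1628, 1561 and 1524 CPM in KO, against 1237, 1307 and 1225 CPM in WT (a log2 difference of 0.32 with SE 0.13, adjusted p = 0.113). RPLP2 had 679, 740 and 612 CPM in KO, against 491, 603 and 539 CPM in WT (a log2 difference of 0.31 with SE 0.17, adjusted p = 0.259). KO libraries were above WT libraries for all 3 genes, and whether RPLP0 differs from its partners was not tested.

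RPL5 and RPL11 form a particle with 5S RNA that also binds the p53 regulator MDM2. RPL5 had 2075, 1914 and 2291 CPM in KO, against 1625, 1500 and 1609 CPM in WT at 6 h, a log2 difference of 0.41 (SE 0.12, adjusted p = 0.0202). At 36 h it had 1651, 1786 and 1636 CPM in KO and 1352, 1534 and 1531 CPM in WT, and the log2 difference of 0.20 did not pass (SE 0.12, adjusted p = 0.296). The call at 6 h was lost without WT replicate 2, WT replicate 3 or KO replicate 3. RPL11 had log2 differences of 0.09, 0.15, 0.19, 0.03 and 0.36 from 0 to 36 h, of which the last had an adjusted p of 0.0573. RPSA, a small-subunit protein also known as the laminin receptor, was the one member called at 0 h. It had 769, 779 and 827 CPM in KO, against 575, 641 and 569 CPM in WT, a log2 difference of 0.41 (SE 0.12, adjusted p = 0.0325). By 36 h it had 611, 716 and 560 CPM in KO and 495, 524 and 573 CPM in WT, which overlapped. The call at 0 h was lost when any 1 of the 6 libraries at that time was left out (adjusted p of 0.054 to 0.169).

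RPS27A, which is made as a fusion with ubiquitin, had 874, 842 and 866 CPM in KO, against 619, 594 and 622 CPM in WT at 36 h (log2 0.49, SE 0.16, adjusted p = 0.0367). RPL41, the smallest ribosomal protein, had 370, 327 and 364 CPM in KO, against 243, 207 and 224 CPM in WT (a log2 difference of 0.66 with SE 0.16, adjusted p = 0.00431). RPL12 at the stalk base was called at 12 h, with 540, 491 and 577 CPM in KO, against 445, 387 and 391 CPM in WT (a log2 difference of 0.39 with SE 0.12, adjusted p = 0.0302). These groups did not overlap. Leaving out replicate 2 or 3 of WT, or 1 or 3 of KO, ended the call of RPL12. RPL29 had a log2 difference of 0.31 at 6 h (SE 0.10, adjusted p = 0.0473), and that call was lost without any 1 of the 6 libraries, as was the call of RPS27A at 36 h. At the other end, RPS12 and RPS20, both of the small subunit, had some of the smallest differences at 36 h among members of at least 10 CPM. Their log2 values were 0.11 and 0.15 (adjusted p = 0.692 and 0.602). RPS12 had 1024, 1070 and 943 CPM in KO and 867, 1000 and 945 CPM in WT, overlapping. Its start and that of RPL35 both hold CTCTTTC. Over tested members, those with a matched string had a median log2 difference of 0.49 at 36 h (52 genes) and those without 0.55 (11 genes). Whether the strings bear on the difference was not tested. Across the 78 members of at least 10 CPM the 36 h difference had Spearman's rho of -0.07 with mRNA length, 0.10 with level and 0.07 with the number of pseudogenes, given as a description.

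Activation itself was examined by setting each later time against 0 h within a genotype. These comparisons share their 0 h libraries with each other and all their libraries with the genotype comparisons, so the values stand side by side and are not separate evidence. At 36 h the ribosomal protein genes of KO cells were near their starting level as a group, while those of WT cells were below it. The letter in the titles also changes between 0 and 36 h in both genotypes. At 24 h the medians of the genotypes were close with all libraries in place, and at 6 h 1 member was called lower in each. In KO cells 1, 2, 9 and 3 of 80 members were called lower at 6, 12, 24 and 36 h, against 13.2, 13.7, 16.7 and 18.0% of all genes. Called higher were 0, 0, 0 and 5, against 14.0, 14.1, 16.1 and 18.6% of all genes. In WT cells 1, 3, 17 and 35 members were called lower, against 10.5, 15.6, 17.0 and 19.0% of all genes. Called higher were 0, 0, 1 and 0, against 11.8, 14.8, 17.3 and 20.2% of all genes. For the counts of 0, an unadjusted p under 0.05 gave 1, 1 and 0 members higher in KO at 6, 12 and 24 h and 0, 0 and 1 in WT at 6, 12 and 36 h, and DESeq2 called 0, 0 and 0 in KO and 0, 0 and 1 in WT. The 35 of 80 at 36 h in WT were more than the share of all genes, and every earlier count in WT but the 17 was under it. The 35 became 22 of 81 without WT replicate 2 at 0 h or WT replicate 2 at 36 h, and 23 without WT replicate 1 at 0 h. In those fits, in that order, 3626 of 23121, 3385 of 23182 and 3413 of 23211 genes were called lower. The 9 in KO at 24 h became 4 of 81 without the low library, KO replicate 1, and 16 without replicate 2. Median log2 changes of the members were 0.04, 0.02, -0.14 and 0.07 in KO, beside 0.03, 0.05, 0.05 and 0.04 for all genes. In WT they were -0.04, -0.13, -0.17 and -0.29, beside 0.03, 0.12, 0.03 and 0.01 for all genes. Without WT replicate 3 at 24 h, 61 of 81 members were called lower in WT at 24 h, against 14.8% of all genes, with a median log2 change of -0.47. The WT count is then higher at 24 h than at 36 h, but the library left out was singled out for its high sum of members. With the 3 high libraries left out 64 of 81 were called lower at 24 h and 44 at 36 h in WT, against 3573 and 4225 of all 23193 genes.

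**Figure D3:**
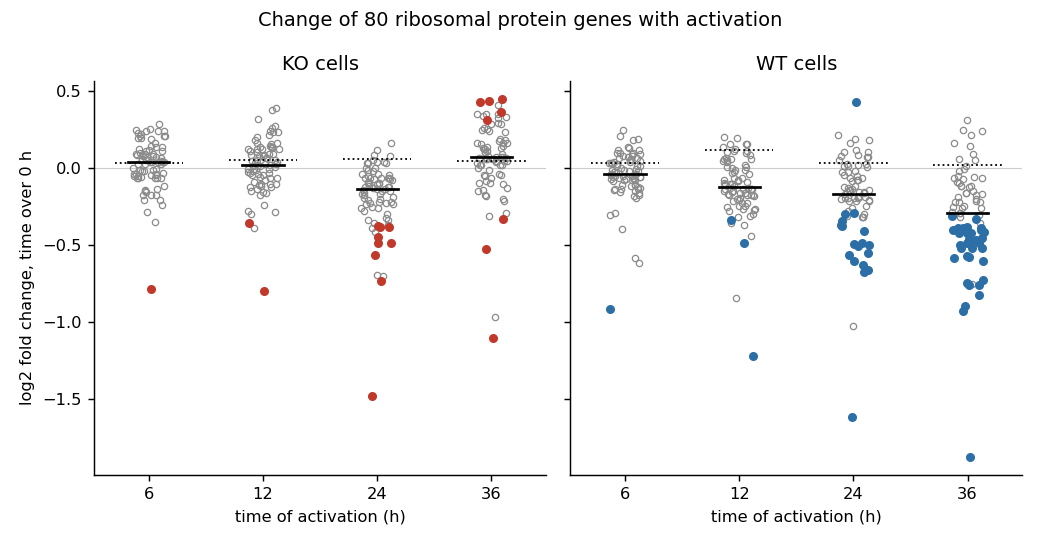
Log2 fold change of each later time over 0 h (y axis) for 80 tested ribosomal protein genes in KO cells (left, red) and WT cells (right, blue), by time in hours (x axis). Filled points passed the adjusted p threshold; solid bars are medians of the 80 genes, dotted lines medians of all genes. At 36 h 3 KO genes and 35 WT genes are called lower.

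Core proteins of both subunits were among the 35 called lower in WT at 36 h. RPS6, the small-subunit protein that S6 kinase phosphorylates when cells grow, had 2168, 1821 and 1997 CPM at 36 h, against 3616, 3204 and 3243 CPM at 0 h (log2 -0.75, SE 0.13, adjusted p = 2.29e-05). RPS15, at the head of the small subunit, had 445, 438 and 405 CPM at 36 h, against 743, 923 and 740 CPM at 0 h (log2 -0.90, SE 0.14, adjusted p = 1.73e-06). In both genes the 2 groups were far apart. The KO libraries of RPS6 held 3463, 2877 and 3440 CPM at 36 h and 3068, 2809 and 3417 CPM at 0 h, which overlapped (log2 0.07, adjusted p = 0.723). Those of RPS15 held 657, 561 and 619 CPM at 36 h and 664, 784 and 671 CPM at 0 h (log2 -0.20, adjusted p = 0.262), with no overlap although the test was not passed. RPL11 (log2 -0.33, adjusted p = 0.0373, lost without any 1 of 5 of the 6 libraries), RPLP0 (log2 -0.39, adjusted p = 0.00863) and RPL41 (log2 -0.82, adjusted p = 7.68e-05) were also called lower in WT at 36 h. RPS3A, a small-subunit protein, had 218, 216 and 428 CPM in WT at 24 h, against 452, 529 and 401 CPM at 0 h (log2 -0.68, adjusted p = 0.00138), and overlapped through WT replicate 3 at 24 h.

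Few members changed the other way. In KO cells the 5 called higher at 36 h were RPL6, RPL23, RPL37A, RPL17 and RPL13A, all of the large subunit. RPL6 had 1195, 1030 and 1169 CPM at 36 h, against 853, 756 and 881 CPM at 0 h (log2 0.45, SE 0.16, adjusted p = 0.0232), with no overlap. RPL23 (log2 0.43, adjusted p = 0.0174) and RPL37A (log2 0.42, adjusted p = 0.0484) were next in size. Without KO replicate 2 at 0 h, the smallest library, 0 of 81 members were called higher at 36 h in KO, against 3580 of all 23189 genes. With the 3 high libraries left out 18 of 81 were, against 4247 of all 23193 genes. RPSA was called lower in KO at 12, 24 and 36 h (log2 -0.36, -0.38 and -0.33, adjusted p = 0.0204, 0.0121 and 0.027), each of which was lost without KO replicate 3 at 0 h.

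RPL39L and RPS27L were called lower at 36 h in both genotypes, and the genes they resemble were not. RPL39L, a copy of RPL39 best known from testis, had 33.7, 31.0 and 34.7 CPM in KO at 36 h, against 73.5, 61.8 and 77.9 CPM at 0 h. In WT it had 27.0, 24.2 and 25.4 CPM at 36 h, against 95.3, 103 and 84.7 CPM at 0 h. It was called lower at all 4 later times in both genotypes, with log2 changes of -0.79, -0.80, -1.48 and -1.11 in KO and -0.92, -1.22, -1.62 and -1.88 in WT (largest adjusted p = 8.54e-05, in KO at 6 h), and no other member was. RPL39 itself had 116, 118 and 107 CPM in KO at 36 h and 116, 93.7 and 116 CPM at 0 h. In WT it had 80.8, 76.4 and 81.4 CPM at 36 h and 93.4, 103 and 83.7 CPM at 0 h, and neither change passed the test (log2 0.06 and -0.22, adjusted p = 0.844 and 0.347). RPS27L, a copy of RPS27 known as a p53 target, had 53.2, 43.2 and 49.3 CPM in KO at 36 h, against 65.5, 76.4 and 68.7 CPM at 0 h (log2 -0.53, adjusted p = 0.0173). In WT it had 39.3, 26.8 and 36.4 CPM at 36 h, against 68.6, 70.4 and 58.2 CPM at 0 h (log2 -0.93, adjusted p = 6.95e-05). RPS27, far more abundant, had 1027, 857 and 1040 CPM in KO and 819, 824 and 765 CPM in WT at 36 h, and its log2 changes from 0 h were 0.16 and -0.07 (adjusted p = 0.498 and 0.779). Whether a paralog's change differs from its partner's was not tested.

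**Figure D4:**
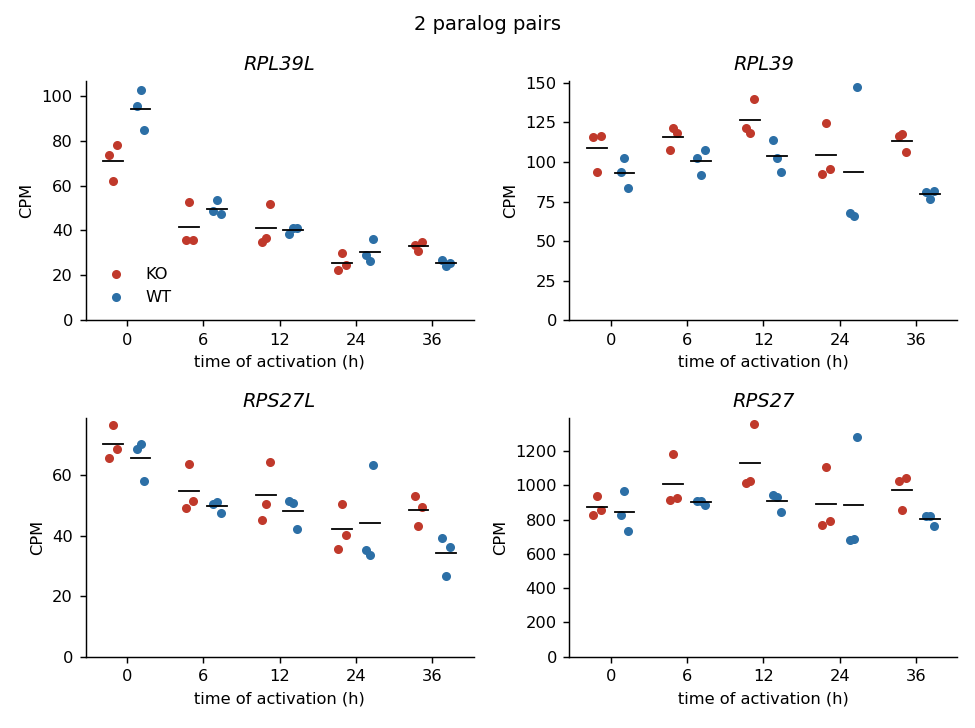
CPM (y axes, linear from 0) of RPL39L, RPL39, RPS27L and RPS27 in each library by time in hours (x axes), KO in red left of WT in blue, bars at the mean of 3. RPL39L means are 33.1 CPM in KO and 25.5 CPM in WT at 36 h, and 71.1 CPM in KO and 94.2 CPM in WT at 0 h, while RPL39 stays between 65.6 and 147 CPM.

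RPL3L and RPL10L, copies of RPL3 and RPL10 best known from muscle and testis, were at or near the limit of detection. RPL3L held 255 counts in 30 libraries, with at most 2.04 CPM in a library. At 36 h it had 0.185, 0.103 and 0.310 CPM in KO, against 0.0907, 2.04 and 0.754 CPM in WT, which overlapped (adjusted p = 0.128). RPL10L held 34 counts in all and was at 0 in 12 libraries. Their parents were abundant, with means of 3121 ± 315 CPM in KO and 2243 ± 255 CPM in WT for RPL3, and 1457 ± 114 CPM in KO and 1105 ± 49.3 CPM in WT for RPL10 at 36 h (SD, n = 3 each). RPL10, which helps join the subunits, was called higher in KO at 36 h (log2 0.40, SE 0.12, adjusted p = 0.0235). Leaving out replicate 2 or 3 of WT, or 1 or 3 of KO, ended this call. RPL39 was called too (log2 0.51, adjusted p = 0.0499), and lost without any 1 library of the 6.

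Whether the 2 genotypes differed in their time courses was tested directly, as the difference between KO and WT in the change from 0 h. Jointly over the 4 later times, 4 of 80 members were called, which is under the 9.84% of all genes called. They were RPL8 (adjusted p = 0.0157), RPS18 (0.0251), RPS6 (0.0296) and RPL3 (0.0470), with RPL7 (0.0550) and RPL35 (0.0563) next. By single times 0 members were called higher in KO at 6, 12 and 24 h, against 1.64, 1.42 and 1.84% of all genes, with 0, 0 and 1 at an unadjusted p under 0.05 by edgeR. DESeq2 was run for the joint comparison only. At 36 h 19 were called higher, against 4.71% of all genes, and 0 lower, against 4.62%, with 40 higher and 0 lower at an unadjusted p under 0.05. The single times were added after the data were seen. The 19 held 10 large-subunit and 9 small-subunit genes, with the largest values in RPL35 (log2 0.88), RPL7 (0.84) and RPS6 (0.82). RPL39L was among them too (log2 0.77, SE 0.21, adjusted p = 0.0177), its level at 36 h having come down less in KO. Leaving out WT replicate 2 or 3 at 36 h left 0 of the joint calls, where 1747 of 23182 and 1676 of 23257 genes were called. Leaving out WT replicate 3 at 24 h gave 26 of 81 members, against 2557 of all 23286 genes.

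RPL8, a large-subunit protein beside the peptidyl transferase centre, had 1862, 1820 and 1826 CPM in KO at 36 h, against 1622, 1578 and 1692 CPM at 0 h. In WT it had 1269, 1134 and 1177 CPM at 36 h, against 1566, 1742 and 1632 CPM at 0 h. The genotypes were level at 0 h and did not overlap at 36 h. The difference between their changes was 0.63 on the log2 scale (SE 0.14, adjusted p = 0.00286). RPL3, which shapes the same centre, had 3271, 2758 and 3332 CPM in KO at 36 h, against 2746, 2621 and 2909 CPM at 0 h. In WT it had 2518, 2015 and 2195 CPM at 36 h, against 3225, 2956 and 3278 CPM at 0 h. Here the order of the genotypes turned round, with KO below WT at 0 h (log2 -0.19, adjusted p = 0.349) and above at 36 h (log2 0.48, adjusted p = 0.00314). The difference between the changes was 0.67 (SE 0.16, adjusted p = 0.0057). For RPS6 it was 0.82 (SE 0.19, adjusted p = 0.00435) and for RPS18 0.78 (SE 0.18, adjusted p = 0.00433). Within KO none of the 4 changes from 0 h passed the test (adjusted p of 0.116 to 0.723), and within WT all 4 did, at log2 changes of -0.46 to -0.75.

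**Figure D5:**
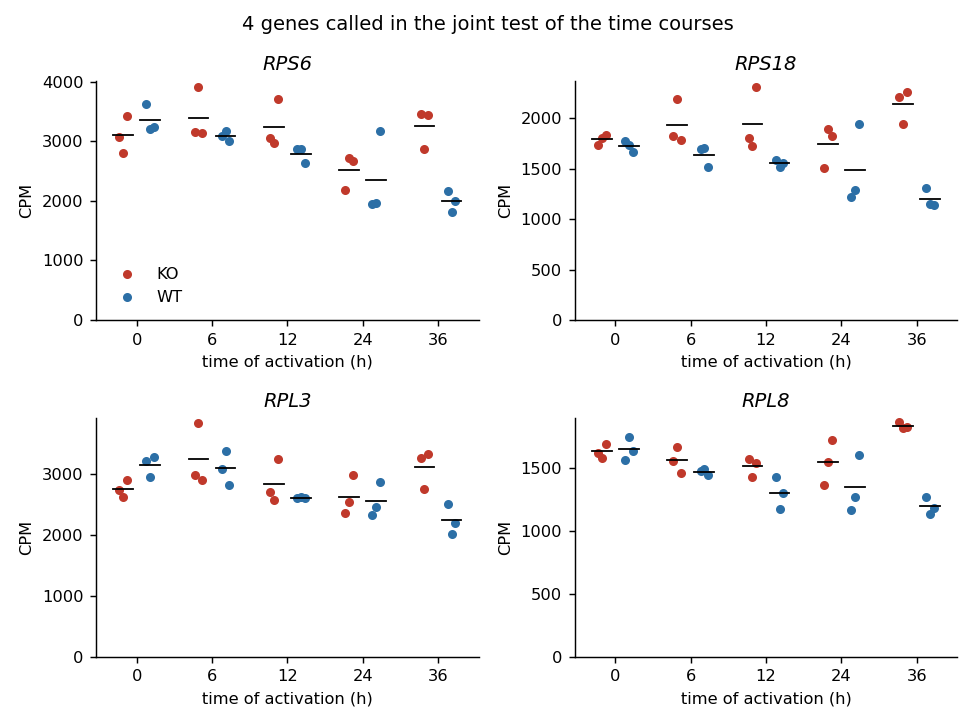
CPM (y axes, linear from 0) of RPS6, RPS18, RPL3 and RPL8 in each library by time in hours (x axes), KO in red left of WT in blue, bars at the mean of 3. At 36 h all KO points lie above all WT points, with RPL8 means of 1836 CPM in KO and 1193 CPM in WT.

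Ribosomal protein genes that the choice by symbol left out were looked at in a list of 6. At 36 h 2 of 6 were called higher in KO (6.95% of all genes) and 0 lower (6.52%), with a median log2 of 0.31. RPL26L1, a close copy of RPL26, had 125, 111 and 127 CPM in KO, against 42.9, 46.7 and 46.1 CPM in WT. That log2 difference of 1.42 (SE 0.18, adjusted p = 5.94e-07) was above the largest rise among members (0.91 for RPL35), and the WT libraries were close together. At 0 h RPL26L1 had 36.7, 37.3 and 48.8 CPM in KO and 50.7, 48.7 and 42.8 CPM in WT, which overlapped. Its joint test of the time courses had an adjusted p of 0.000154, and the difference between the changes at 36 h was 1.62 (SE 0.25, adjusted p = 5.15e-05). FAU, which encodes RPS30 fused to a ubiquitin-like protein, was the other call (log2 0.41, SE 0.13, adjusted p = 0.038).

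Other mRNAs with a TOP tract were looked at in a list of 20, mostly translation factors. At 36 h 8 were called higher in KO (6.95% of all genes) and 1 lower (6.52%), with a median log2 of 0.21. EEF1B2, an exchange factor for elongation, had 632, 602 and 589 CPM in KO, against 415, 386 and 433 CPM in WT (log2 0.56, adjusted p = 0.00119). NPM1, a nucleolar chaperone of ribosome assembly, differed by 0.61 (adjusted p = 0.0034) and EEF1G by 0.46 (adjusted p = 0.0016). VIM, an intermediate filament gene, was the one called lower, with 65.7, 79.1 and 67.5 CPM in KO, against 108, 113 and 137 CPM in WT (log2 -0.76, adjusted p = 0.00276). Over the average of the 5 times 13 of 20 were called higher and 0 lower, against 15.3% of all genes each way. These became 13 and 1 with the 3 high libraries left out, against 14.5 and 15.2% of all genes. Of 12 host genes of small nucleolar RNAs, non-coding transcripts that begin with the same kind of tract, 3 were called higher at 36 h (6.95% of all genes) and 10 in the average (15.3%). With the 3 high libraries left out these were 5 and 10, against 7.7 and 14.5% of all genes. GAS5 had 248, 220 and 266 CPM in KO, against 171, 159 and 159 CPM in WT at 36 h (log2 0.58, adjusted p = 0.000165), and SNHG8 differed by 0.80 (adjusted p = 0.000154).

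Regulators of TOP mRNAs were looked at in a list of 18. At 36 h 5 were called higher in KO (6.95% of all genes) and 1 lower, a share near the 6.52% of all genes. RHEB, the activator of mTORC1, had 66.5, 57.8 and 76.5 CPM in KO, against 50.4, 40.5 and 49.3 CPM in WT (log2 0.51, adjusted p = 0.0011). LARP1 differed by 0.44 (adjusted p = 0.0139) and the helicase EIF4A1 by 0.42 (adjusted p = 0.0112). EIF4EBP2, a repressor of cap-dependent translation, had 146, 154 and 139 CPM in KO, against 200, 195 and 206 CPM in WT (log2 -0.45, adjusted p = 0.00126). None of these 4 genes overlapped between genotypes at 36 h. Transcript levels say nothing of kinase activity or translation, which these libraries do not measure.

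Mitochondrial ribosomal proteins, 74 tested genes, served as the nearest comparison. In KO cells 12, 20, 26 and 12 of them were called lower than at 0 h at 6, 12, 24 and 36 h, against 13.2, 13.7, 16.7 and 18.0% of all genes. Called higher in KO were 7, 7, 6 and 11, against 14.0, 14.1, 16.1 and 18.6% of all genes. The KO counts lower at 6 and 36 h, 12 of 74 each, are near the share of all genes. In WT cells 31, 40, 39 and 48 were called lower, against 10.5, 15.6, 17.0 and 19.0% of all genes, and 2, 2, 5 and 6 higher, against 11.8, 14.8, 17.3 and 20.2%. At 6 h that set 31 of 74 mitochondrial beside 1 of 80 cytosolic genes called lower in WT. At 36 h, between genotypes, 12 of 74 were called higher in KO (6.95% of all genes) and 1 lower (6.52%), with a median log2 of 0.22, beside 50 of 80 and 0.49 for the cytosolic genes. When the 36 h changes of KO and WT were set against each other, 15 of 74 mitochondrial and 19 of 80 cytosolic genes were called higher. Of all genes 4.71% were. Called lower were 1 mitochondrial and 0 cytosolic genes, against 4.62% of all genes, and the medians were 0.37 and 0.41. The difference between the 2 sets was not tested. Their summed level was 7968 ± 487 CPM in KO and 6656 ± 493 CPM in WT cells at 36 h, and 7492 ± 203 CPM in KO and 8412 ± 150 CPM in WT cells at 0 h (SD, n = 3 each).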

How the data were processed

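The authors deposited 1 file per library of expected counts per gene symbol. Values were rounded, since 195 of 54300 symbols, but no member, had fractions. Cutadapt, STAR, DESeq2, GRCh37 and hg19 stand in the submitters' processing notes, and neither counting program nor strand setting is given there. Libraries of 5.64 to 28.2 M counts were filtered (edgeR 4.0.16 filterByExpr, minimum count 10) to 21554 symbols and scaled by TMM. One quasi-likelihood fit (R 4.3.3) gave each of the 10 groups its mean, with Benjamini-Hochberg adjustment over all genes and calls at adjusted p under 0.05. The code was checked on simulated counts. Symbols were matched to GENCODE 29 for length and to RefSeq for starts. Members and lists were chosen with earlier results of these data known. Named were the stalk genes, RPSA, RPL5, RPL11, RPS6, RPS27A, RPL41, 4 paralog pairs, the 3 largest called rises and falls per comparison among genes of at least 10 CPM, the 6 smallest p of the joint test, the extremes per kb, and up to 4 genes of each list with the smallest p. RPL13A, RPL17, RPL26, RPS12 and RPS20, chosen after their values were seen, were also named where a count or an extreme called for it. Results on some members are not reported here. Shared title numbers were not used to pair KO and WT libraries in the main fit. Of 12 correlations 1 exceeded 0.1, which does not exclude a pairing. Alternatives were another scaling, no filter, DESeq2 1.42.0, pseudogene counts added, fewer libraries and a replicate block.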

Additional observations from a re-analysis of the deposited data

Results flagged for a closer look

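The joint test of the difference between KO and WT in the change from 0 h called RPL8 (adjusted p = 0.0157), RPS18 (adjusted p = 0.0251), RPS6 (adjusted p = 0.0296) and RPL3 (adjusted p = 0.0470) by edgeR. These 4 of 80 members are under the 9.84% of all genes that were called. The log2 change at 36 h over 0 h was between 0.07 and 0.26 in KO, where none of the 4 was called, and between -0.75 and -0.46 in WT, where all 4 were. The joint calls of these genes were lost without WT replicate 2 or without WT replicate 3 at 36 h.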

How the results depend on the processing

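At 36 h edgeR called 50 members higher in KO and 0 lower. The count higher was 46 with RLE size factors, 50 with TMM computed without ribosomal protein genes, 69 without a filter on low counts, 49 with pseudogene counts added, 72 from the 2 groups alone, 53 by DESeq2 and 69 with the 3 libraries of high summed level left out. All genes called higher were 1402 of 21554 with RLE, 1548 of 50735 without a filter and 1962 of 16521 from the 2 groups alone. They were 1632 of 21554 by DESeq2 and 1786 of 23193 without the 3 libraries. Leaving out 1 library at a time gave 31 to 43 members called in either direction, the lowest without WT replicate 2. Without WT replicate 1 the 43 were 42 higher and 1 lower. All genes called either way were 2062 of 23182 without WT replicate 2 and 2209 of 23250 without WT replicate 1. Of the values for single genes under these alternatives 969 kept their call, 97 lost it and 0 changed sign. The cause of the changes below was not tested.

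Between genotypes at 0 h 1 member was called, against 0 with RLE, 6 without a filter, 12 from 2 groups alone, 2 by DESeq2 and 12 without the 3 libraries. At 6 h 3 were called, against 14 from 2 groups alone and 6 without the 3 libraries. At 12 h 2 were called, against 1 with RLE, 17 without a filter, 5 from 2 groups alone, 1 by DESeq2 and 6 without the 3 libraries. At 24 h 1 was called, against 2 without a filter and 55 without the 3 libraries. Without the 3 libraries all genes called were 1728, 2302, 2348 and 2175 of 23193 at 0, 6, 12 and 24 h. From 2 groups alone they were 1639 of 16713, 2257 of 16745, 2260 of 17411 and 941 of 15999. Without a filter they were 1387, 2037, 2837 and 1976 of 50735. With 1 library left out the counts were 0 to 1, 0 to 2, 1 to 4 and 1 to 52 at 0, 6, 12 and 24 h, and 51 to 77 for the average, where 56 were called. The 52 and the 77 came without WT replicate 3 at 24 h, where all genes called were 1886 and 6886 of 23286. At 0 h all genes called were 651 of 23211 without WT replicate 1 and 954 of 23189 without KO replicate 2.

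Between times in WT, 2 groups alone gave 10, 18 and 7 at 6, 12 and 24 h, no filter gave 11 at 12 h, and the 3 libraries left out gave 4, 21 and 64. All genes called from 2 groups alone were 5981 of 16792, 7049 of 16996 and 6450 of 15750. The member counts from 2 groups are under that share. Without a filter 5892 of 50735 genes were called at 12 h. Without the 3 libraries 5303, 7027 and 7251 of 23193 were called at 6, 12 and 24 h. In KO, no filter gave 5 and 19 at 12 and 36 h, 2 groups alone gave 6 and 24, and the 3 libraries left out gave 3, 7, 21 and 22 at 6, 12, 24 and 36 h. All genes called in KO were 5338 and 7162 of 50735 without a filter at 12 and 36 h. From 2 groups alone they were 5436 of 16319 and 7941 of 16576. Without the 3 libraries they were 5751, 5584, 7432 and 8216 of 23193 at 6, 12, 24 and 36 h. With 1 library left out the WT counts were 1 to 1, 2 to 7, 8 to 61 and 22 to 34 at 6, 12, 24 and 36 h, and the KO counts 1 to 1, 1 to 3, 4 to 16 and 2 to 8. In WT at 24 h the 8 came without replicate 1 at that time, with 6469 of 23194 genes called. The 61 came without replicate 3, with 7038 of 23286 called. The WT count at 36 h was 23, 22 and 22 without WT replicate 1 or 2 at 0 h or WT replicate 2 at 36 h, and the KO count at 36 h was 2 without KO replicate 2 at 0 h. In that order all genes called were 7278 of 23211, 7554 of 23121, 7467 of 23182 and 7210 of 23189.

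The joint test of the difference in time course, with 4 calls, gave 26 without a filter, 11 by DESeq2, 38 without the 3 libraries and 0 to 26 with 1 library left out. All genes called jointly were 2817 of 50735 without a filter, 3180 of 21554 by DESeq2 and 2864 of 23193 without the 3 libraries. Without WT replicate 2 at 36 h, with 0 members called, they were 1747 of 23182. Without WT replicate 3 at 24 h, with 26 members called, they were 2557 of 23286. At 6, 12 and 24 h alone it gave 0, 0 and 0, at 36 h alone 19, and 41 there without the 3 libraries. In that last fit 2637 of 23193 genes were called. With total count scaling, the summed CPM of the members, WT 6 h, was 68987, and the summed CPM of the members, WT 36 h, was 59176. The median of all genes in WT at 12 h over 0 h was 0.12 on the log2 scale under TMM, beside which the members' -0.13 is to be read.

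A replicate block on the title numbers gave 3, 10, 11 and 2 calls between genotypes at 0, 6, 12 and 24 h. Of all 21004 genes 1756, 2542, 2629 and 2473 were called with that block. At 36 h no number is shared. The 12 correlations of same-numbered libraries ran from -0.015 to 0.126. Low correlations over all tested genes cannot exclude that the numbers mark a pairing, which the titles do not state. The smallest library, at 5.64 M counts, is KO replicate 2 at 0 h, and depth limits mainly RPL3L and RPL10L. With 3 libraries in each group an exact permutation test of a single value could not go below 0.10.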
